A study of Mus musculus with 14 samples.

Results

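Gene expression was compared between 2 leg muscles of normal mice, the extensor digitorum longus (EDL), a fast muscle at the front of the lower leg, and the soleus, a slower postural muscle of the calf. The samples were chosen by their titles, and they make up 7 of the 14 arrays of the series: 3 arrays of EDL and 4 arrays of soleus from wild type (WT) mice. The WT mice were disomic C57BL/6 littermates of Ts1Cje mice, a model of Down syndrome in which the distal part of chromosome 16 is present in 3 copies. No treatment, age or sex is given in the sources used here. The other 7 arrays held the same muscles of the Ts1Cje mice, 3 of EDL and 4 of soleus, which entered the estimate of the spread and 1 comparison at the end. Littermates were paired within a muscle, and whole muscle RNA was hybridised to 1-colour Agilent arrays. The labels do not say that each array is a separate animal, so p-values measure the spread between these samples.

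Skeletal muscle is built from fibres that differ in the myosin heavy chain of their thick filaments. Slow type I fibres use the beta heavy chain Myh7, contract slowly, resist fatigue and burn fat and sugar in many mitochondria. Fast fibres use Myh2 (type IIa), Myh1 (type IIx) or Myh4 (type IIb), and the fastest of them depend most on glycogen and glycolysis. The rodent EDL is known as a muscle of IIb and IIx fibres, and the mouse soleus as one of type I and IIa fibres. Each fibre type also has its own versions of the other sarcomere proteins, of the calcium pump and of the calcium store. In RNA from whole muscle, fewer cells of a type and less RNA per cell cannot be told apart.

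Values are given as log2 of the probe's signal over the 75th percentile of its array, so that 0 stands at that percentile. Between 41.3% and 46.4% of probes were well above background on the EDL arrays and between 44.1% and 51.9% on the soleus arrays. Arrays of the same muscle correlated at 0.982 to 0.988 across genes, and arrays of different muscles at 0.950 to 0.971. Along the first principal component of the 7 arrays, which held 59.1% of the variance, the EDL arrays lay between -52.0 and -36.8 and the soleus arrays between 28.6 and 39.4. All WT EDL arrays were on slide 1 and all WT soleus arrays on slide 2, so slide and muscle cannot be told apart within the WT arrays. A single soleus array, from a Ts1Cje mouse, was hybridised on slide 1. For 86.4% of the genes that differed between the WT muscles, that array lay nearer to the WT soleus mean than to the WT EDL mean, and for 92.9% of those that differed by more than 2-fold, against 68.6% of all genes.

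Of 14161 genes tested, 4219 differed between EDL and soleus at an adjusted p under 0.05 (limma, Benjamini-Hochberg adjustment), which is 29.8%. EDL was higher for 2838 genes (20.0%) and soleus for 1381 (9.75%). The balance shifted with the size of the difference. Past 2-fold, 571 genes (4.03%) were higher in EDL and 505 (3.57%) in soleus. Past 4-fold the counts were 106 (0.749%) and 144 (1.02%), and past 16-fold they were 4 (0.0282%) and 16 (0.113%). The median difference over all genes was 0.07 on the log2 scale, with quartiles at -0.25 and 0.35. The 3 EDL arrays lay above all 4 soleus arrays for 3658 genes (25.8%) and below them for 1848 (13.0%). The share of calls that were higher in EDL, 67.3%, was 56.9% when the median of all genes was set to 0 on every array, a setting added after the data were seen, and 57.6% with quantile normalization. With normexp background correction 2279 genes passed the test, and with slide as a fixed term 1367 did. With slide as a term the muscle difference rests on the single soleus array of slide 1. Of the 159 genes named below that passed the test, 159 had the same sign with that term and 103 passed the test again. The counts of the gene lists below are to be read against the 20.0% and 9.75% of all genes. List counts under another setting are to be read against that setting's counts over the same 14161 genes. Those higher in EDL and in soleus were 982 and 385 with slide as a fixed term and 1494 and 785 with normexp. With quantile normalization they were 2143 and 1578, and with the replicate number as a block 2852 and 1729. At an unadjusted p under 0.05 (limma), 5758 genes passed in either direction.

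The markers listed for each muscle matched the labels, with 1 exception. Most of these markers belong to the isoform pairs below, which were chosen with earlier results of these data known. The match is therefore a description and not an independent check. Of 8 soleus markers (Myh7, Myh2, Tnnt1, Tnni1, Tnnc1, Myl2, Myl3 and Atp2a2), 8 were higher in soleus. Of 8 EDL markers, 7 were higher in EDL (Myh4, Pvalb, Actn3, Tnnt3, Tnni2, Tnnc2 and Atp2a1). The exception was Myh1, the IIx heavy chain.

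The fast myosin heavy chain genes lie next to each other on chromosome 11, and they differed in direction between the muscles. Their promoters are shown beside those of a fast light chain (Mylpf), a slow light chain (Myl3) and slow troponin C (Tnnc1), because these genes span the range of differences described next. The sequences are the 250 bases before the start of each gene from RefSeq, build GRCm38.p6, plus strand, read 5′ to 3′. Capitals mark matches, on either strand, to TATAAA (the TATA box), CATTCC (the MCAT motif bound by TEAD factors) or CAGCTG (an E-box form bound by myogenic factors). Their positions are chr11:67170777-67171026 for Myh2, chr11:67199852-67200101 for Myh1, chr11:67237562-67237811 for Myh4, chr7:127211358-127211607 for Mylpf, chr9:110763428-110763677 for Myl3 and chr14:31208062-31208311 for Tnnc1.
Myh2: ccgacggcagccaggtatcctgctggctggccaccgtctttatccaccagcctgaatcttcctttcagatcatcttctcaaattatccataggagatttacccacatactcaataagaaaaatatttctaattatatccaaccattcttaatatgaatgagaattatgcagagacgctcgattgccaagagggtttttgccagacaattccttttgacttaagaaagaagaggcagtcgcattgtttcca
Myh1: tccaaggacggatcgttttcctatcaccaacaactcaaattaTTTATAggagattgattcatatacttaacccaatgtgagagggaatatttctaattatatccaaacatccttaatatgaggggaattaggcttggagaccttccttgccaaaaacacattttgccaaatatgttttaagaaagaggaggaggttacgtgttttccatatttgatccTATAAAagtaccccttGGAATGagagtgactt
Myh4: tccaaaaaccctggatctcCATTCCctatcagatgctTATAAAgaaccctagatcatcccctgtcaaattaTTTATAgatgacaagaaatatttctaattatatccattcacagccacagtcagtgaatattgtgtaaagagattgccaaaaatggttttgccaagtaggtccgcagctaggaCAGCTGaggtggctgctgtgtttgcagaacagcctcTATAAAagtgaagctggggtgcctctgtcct
Mylpf: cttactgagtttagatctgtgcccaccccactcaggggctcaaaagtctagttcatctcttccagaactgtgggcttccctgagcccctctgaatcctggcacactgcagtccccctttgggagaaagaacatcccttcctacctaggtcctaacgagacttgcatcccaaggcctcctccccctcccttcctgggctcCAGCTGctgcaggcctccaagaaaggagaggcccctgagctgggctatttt
Myl3: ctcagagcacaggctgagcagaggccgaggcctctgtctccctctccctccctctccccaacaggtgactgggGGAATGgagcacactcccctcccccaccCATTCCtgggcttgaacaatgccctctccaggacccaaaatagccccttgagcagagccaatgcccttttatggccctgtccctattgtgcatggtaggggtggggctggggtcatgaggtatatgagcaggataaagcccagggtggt
Tnnc1: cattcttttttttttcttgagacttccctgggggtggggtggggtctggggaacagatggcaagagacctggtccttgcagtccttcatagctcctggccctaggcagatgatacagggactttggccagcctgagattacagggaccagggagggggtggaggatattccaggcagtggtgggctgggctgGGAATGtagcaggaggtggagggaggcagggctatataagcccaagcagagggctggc
The Myh2, Myh1 and Myh4 windows shared a run of 20 bases, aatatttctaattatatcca, which begins 130, 165 and 163 bases before the start. TATAAA stood 32 to 27 bases before the start of Myh1 and 31 to 26 bases before the start of Myh4, and none of the 3 motifs was found in the Myh2 window. Among the 8552 tested genes with 1 start in the RefSeq table, 7.96% held TATAAA, 10.9% held CATTCC and 12% held CAGCTG in the same window. In all, 9 motifs were searched. Among the fast isoform genes described below, 8 had 1 start, and 5 of these held CAGCTG, 4 CATTCC and 2 TATAAA. Of 7 slow ones, 2, 2 and 1 did. The MEF2 motif lay in 0 and 1 of these genes, GGAAAA (the NFAT core) in 2 and 0, TCAGGTT (MEF3) in 0 and 1, and AAGGTCA (bound by estrogen-related receptors) in 0 and 0. CANNTG lay in 8 and 7 of them. A loose pattern for the core of the serum response element lay in 8 and 4. That pattern fixed only the outer C and G pairs and allowed any base between them. A match to it need not be that element. CAGCTG was present in 22.8% of 57 genes called past 4-fold higher in EDL and in 16.1% of 87 called past 4-fold higher in soleus. For the same 2 sets the shares were 12.3% and 9.2% for CATTCC, 10.5% and 9.2% for TATAAA, and 5.26% and 3.45% for TCAGGTT (2.79% of all genes). They were 1.75% and 3.45% for the MEF2 motif (2.93% of all genes) and 3.51% and 5.75% for AAGGTCA (2.9%). GGAAAA lay in 10 of the 57 and 10 of the 87 genes (17.5% of the first set), against 18.6% of all genes. For CANNTG, the general E-box, which includes CAGCTG, the shares were 61.4% and 67.8% (58.1% of all genes). For the loose serum response pattern they were 71.9% and 78.2% (79.5%). A match describes the letters in the window and not a bound site.

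Myh7, the slow heavy chain, had log2 values of 6.44, -0.02 and 5.74 on the EDL arrays and 10.35, 10.41, 10.08 and 10.38 on the soleus arrays. The muscles did not overlap, and EDL replicate 2 stood far below the other EDL arrays. Myh7 was 76-fold higher in soleus (log2 difference -6.25 ± 1.2 SE, adjusted p = 0.00189, limma), the widest difference among genes measured on all 7 arrays. Its probe lies on chromosome 14, 55589581 to 55589640 (mm9). Myh7b, a relative of Myh7 that holds a microRNA in an intron, had values of 3.09, 0.35 and 2.37 in EDL and 7.69, 7.49, 7.19 and 7.52 in soleus (46.5-fold, adjusted p = 1.44e-05). Without EDL replicate 2 the log2 difference was -4.21 for Myh7 and -4.74 for Myh7b, against -6.25 and -5.54 with all arrays, and for Myh7 it was -7.44 without EDL replicate 1 and -7.09 without EDL replicate 3.

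Myh2, the IIa chain, had values of 8.68, 7.20 and 9.47 on the EDL arrays and 10.65, 10.84, 10.59 and 10.85 on the soleus arrays. All soleus arrays were higher, by 4.86-fold on average (log2 difference -2.28, adjusted p = 0.00234, and -1.66 without EDL replicate 2). Myh4, the IIb chain, showed the opposite order, with 11.60, 11.93 and 11.25 in EDL and 9.67, 9.26, 9.83 and 8.79 in soleus. Myh4 was 4.62-fold higher in EDL (log2 difference 2.21 ± 0.58, adjusted p = 0.0118), and the call was lost with quantile normalization (difference 1.6, adjusted p = 0.0535) and with slide as a fixed term (1.64, adjusted p = 0.35). Myh1 values overlapped, at 9.27, 9.23 and 9.61 in EDL and 8.69, 9.50, 9.22 and 8.70 in soleus (difference 0.34 ± 0.21, adjusted p = 0.232). Of the developmental chains, embryonic Myh3 was 3.17-fold higher in soleus (adjusted p = 0.00963) and perinatal Myh8 1.68-fold higher in EDL (adjusted p = 0.00475), although Myh8 differed by 0.08 with quantile normalization. In all, 2 of 10 sarcomeric heavy chain genes were higher in EDL and 4 in soleus. The counts were 0 and 5 with quantile normalization and 0 and 1 with slide as a fixed term, where Myh7 (adjusted p = 0.0902), Myh2 (0.0539), Myh3 (0.196) and Myh8 (0.557) did not pass the test either.

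The difference extended through the sarcomere and the calcium store. In 12 pairs of genes that encode the fast and the slow version of the same protein, the fast gene was higher in EDL in 12 and the slow gene higher in soleus in 11. The slow genes differed more, with a median of -5.11 against 1.6 for the fast genes, and the slow member had the wider difference in 10 of the 12 pairs. Without EDL replicate 2 the median of the slow genes was -4.09. These pairs are known fibre type markers, so their direction describes the muscles and is not an independent finding. With quantile normalization the differences of Tnnc2 (0.06, adjusted p = 0.628), Tnni2 (0.16, adjusted p = 0.224) and Myh4 did not pass the test. With slide as a fixed term, 5 of the 12 fast genes and 9 of the 11 called slow genes passed it.

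**Figure D1:**
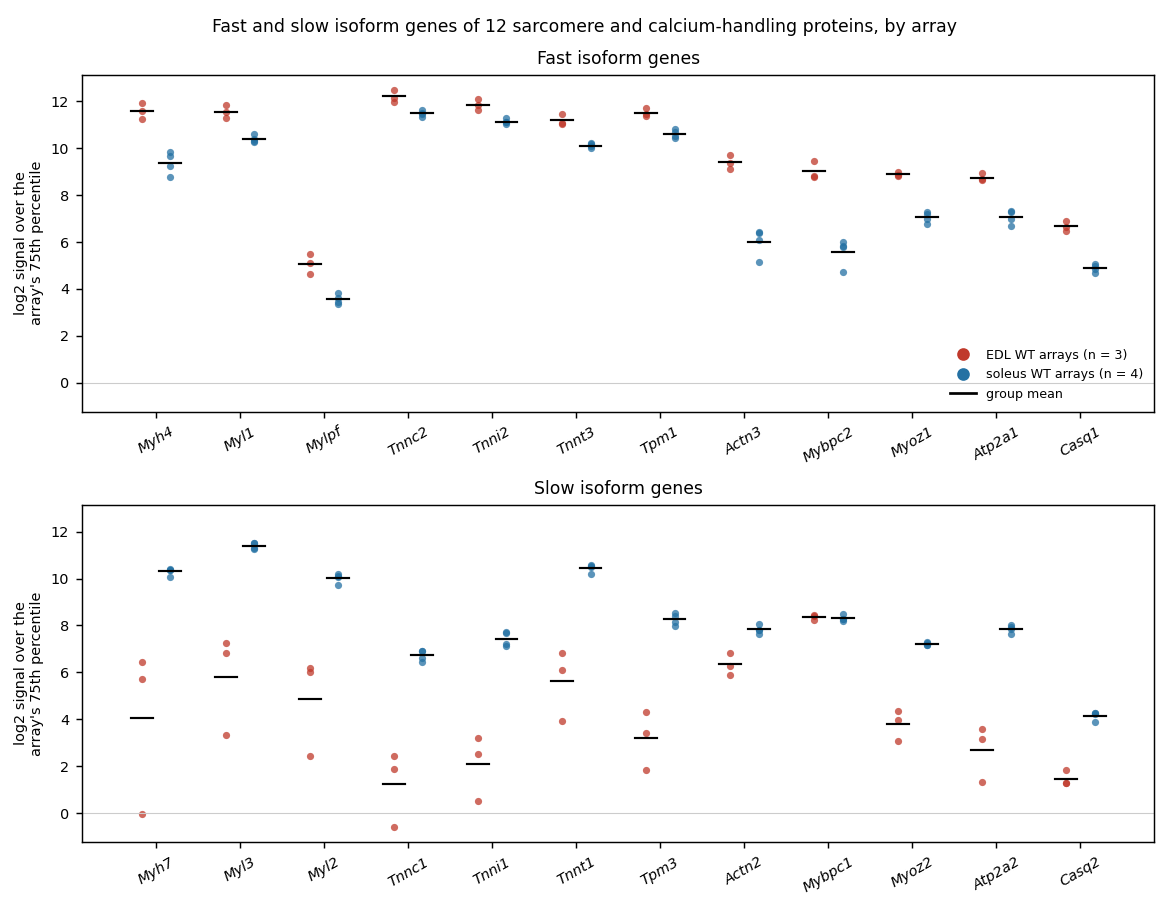
Log2 signal over the array's 75th percentile (y axis) for the fast (upper panel) and slow (lower panel) gene of 12 proteins, with a point for each of the 3 EDL and 4 soleus WT arrays and a line at each group mean. The group means of fast genes differ by 0.72 to 3.43 in favour of EDL, and those of the slow genes, except Mybpc1 at 0.04, by -6.25 to -1.51, with EDL points spread widely.

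Troponin C, the calcium sensor of the thin filament, is an example. Its slow form Tnnc1 had values of 2.43, -0.59 and 1.89 on the EDL arrays and 6.91, 6.62, 6.46 and 6.89 on the soleus arrays. The gap was 44.5-fold (adjusted p = 4.08e-05), while the fast form Tnnc2 was 1.66-fold higher in EDL (12.16, 12.49 and 11.99 against 11.32, 11.65, 11.46 and 11.52). Slow troponin I (Tnni1), the inhibitory subunit, was 41.1-fold higher in soleus, and slow troponin T (Tnnt1), which ties the complex to tropomyosin, 28.2-fold. The slow myosin light chains Myl3 and Myl2 were 48.1-fold and 35.6-fold higher in soleus, and slow tropomyosin Tpm3 33.6-fold. Their fast partners Myl1, Mylpf, Tnni2, Tnnt3 and Tpm1 were 2.24-fold, 2.88-fold, 1.65-fold, 2.12-fold and 1.86-fold higher in EDL. The size of the slow gaps moved with single EDL arrays. Without EDL replicate 2 the log2 difference was -4.56 for Tnnc1 (-5.48 with all arrays), -4.58 for Tnni1 (-5.36), -3.97 for Tnnt1 (-4.82), -4.35 for Myl3 (-5.59), -3.93 for Myl2 (-5.15) and -4.40 for Tpm3 (-5.07). Without EDL replicate 1 it was -6.07 for Tnnc1, -5.43 for Tnnt1 and -6.31 for Myl3, and without EDL replicate 3 it was -5.82 for Myl2.

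Alpha-actinin and myosin-binding protein C broke the pattern in size or direction. Actn3, the alpha-actinin of fast fibre Z-discs, had values of 9.36, 9.72 and 9.13 in EDL and 6.39, 6.10, 6.45 and 5.13 in soleus and was 10.5-fold higher in EDL (adjusted p = 7.65e-06). Its partner Actn2 was 2.84-fold higher in soleus, so here the fast gene differed more. Mybpc2, fast myosin-binding protein C, had values of 8.83, 9.44 and 8.79 in EDL and 5.78, 5.83, 6.01 and 4.72 in soleus and was 10.8-fold higher in EDL. The slow partner Mybpc1 had values of 8.40, 8.46 and 8.22 in EDL and 8.30, 8.51, 8.18 and 8.28 in soleus, a difference of 0.04 ± 0.10 (adjusted p = 0.779), and with quantile normalization it was -0.34 (adjusted p = 0.0172).

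In the wider lists, 14 of 15 fast sarcomere genes were higher in EDL and 1 in soleus, with a median of 1.16, and 14 of 17 slow sarcomere genes were higher in soleus and 1 in EDL, with a median of -2.74. With slide as a fixed term, 6 of the fast and 9 of the slow genes were called in those directions. Fast genes outside the pairs included Mylk2, the kinase of the regulatory light chain (4.65-fold), and the Z-disc proteins Myoz3 (3.53-fold) and Pdlim3 (2.12-fold). The fast gene that was higher in soleus was Smtnl1, a smoothelin-like protein (5.17-fold, adjusted p = 0.000702). Slow genes outside the pairs included Csrp3, the muscle LIM protein (6.66-fold), the stretch-responsive ankyrin repeat protein Ankrd2 (6.28-fold), Myom3, a protein of the M-band (6.03-fold), and Fhl1 (2.68-fold). The slow-list gene higher in EDL was Mybph, myosin-binding protein H, with 4.10, 4.98 and 2.09 on the EDL arrays and -0.71, -3.38, -1.63 and -2.88 on the soleus arrays. Mybph was above background on 2 of 4 soleus arrays, and the measured means differed 58.7-fold (log2 difference 5.87, adjusted p = 5.19e-05). That difference was 5.24 without EDL replicate 2 and 6.69 without EDL replicate 3.

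Calcium handling genes were mostly higher in EDL. Of 23 genes for calcium release, storage and buffering, 17 were higher in EDL and 2 in soleus, with a median of 0.82, and 11 and 1 were called with slide as a fixed term. Pvalb, parvalbumin, the calcium buffer of fast fibres, had values of 11.78, 12.16 and 11.43 on the EDL arrays and 8.58, 8.57, 8.93 and 8.0 on the soleus arrays. The groups did not overlap, and Pvalb was 9.62-fold higher in EDL (adjusted p = 1.11e-06). Casq1, the calsequestrin of fast fibres, had 6.66, 6.89 and 6.48 in EDL and 4.99, 4.70, 5.06 and 4.84 in soleus (3.43-fold), and the junctophilins Jph1 and Jph2, which hold the store against the surface membrane, were 2.28-fold and 2.62-fold higher in EDL.

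The release channel itself differed less. Ryr1, the ryanodine receptor, had values of 7.37, 7.68 and 7.24 in EDL and 6.79, 6.80, 6.66 and 6.32 in soleus, a 1.73-fold difference (adjusted p = 0.00389). Cacna1s, the voltage sensor, differed 1.76-fold (adjusted p = 0.00119), and this call was lost with quantile normalization. Its partner subunits Cacng1 and Cacnb1 were 2.47-fold and 1.8-fold higher in EDL. The soleus-higher genes of the list were Casq2, the slow and cardiac calsequestrin, with 1.30, 1.82 and 1.28 in EDL and 4.27, 4.24, 3.87 and 4.25 in soleus (6.46-fold), and S100a1, a calcium sensor (1.56-fold).

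Of 9 measured genes of calcium pumps and their inhibitors, 3 were higher in EDL and 2 in soleus (4 with the replicate number as a block), with a median of -0.13, and Pln, phospholamban, was not measured. Atp2a2 (SERCA2, the slow pump) had values of 3.57, 1.30 and 3.16 on the EDL arrays and 7.95, 8.02, 7.61 and 7.86 on the soleus arrays. Atp2a2 was 36.4-fold higher in soleus (adjusted p = 1.87e-05), and Atp2a1 (SERCA1, the fast pump) was 3.18-fold higher in EDL (adjusted p = 0.000245). Sln, sarcolipin, a small inhibitor of the pump, had 2.53, 1.49 and -0.41 in EDL and 6.57, 6.04, 5.22 and 5.59 in soleus and was 25.1-fold higher in soleus. Mrln, myoregulin, another small inhibitor, showed the reverse, with 5.31, 5.45 and 4.91 in EDL and 3.44, 3.39, 3.13 and 3.74 in soleus (3.49-fold, adjusted p = 1.7e-05). Atp2b3, a calcium pump of the surface membrane was above background on 3 of 4 soleus arrays and higher in EDL, with measured means 3.71-fold apart. Without EDL replicate 2 the log2 difference of Atp2a2 was -4.50 (-5.18 with all arrays), and that of Sln was -5.31 without EDL replicate 1 and -3.84 without EDL replicate 3 (-4.65 with all arrays).

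Calcineurin and the calcium-dependent kinases read the calcium signal of muscle activity, and calcineurin is known for promoting the slow program. Of 17 genes, 8 were higher in EDL and 4 in soleus, with a median of 0.22. The EDL-higher genes held the calcineurin subunits Ppp3ca (2.31-fold), Ppp3cb (2.33-fold) and Ppp3r1 (1.89-fold) and the kinase Camk2a, with 2.48, 2.58 and 2.55 in EDL and -0.26, -0.10, 0.20 and -0.17 in soleus (6.15-fold, adjusted p = 1.46e-07). Soleus-higher genes held Myoz2, calsarcin 1, which binds calcineurin at the Z-disc (10.6-fold), and Rcan2, a calcineurin inhibitor (2.54-fold). Without EDL replicate 1, 2 of these genes were called higher in soleus.

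Genes of glycolysis were higher in EDL along most of the pathway. Of 24 genes, 16 were higher in EDL and 1 in soleus, and the median was 1.34, against 0.07 over all genes. The median was 0.81 with quantile normalization, and with slide as a fixed term 13 and 1 genes were called. Pfkm, muscle phosphofructokinase, which commits sugar to glycolysis, had values of 9.73, 9.74 and 9.69 on the EDL arrays and 8.22, 8.17, 8.42 and 8.14 on the soleus arrays. Every EDL array was higher, by 2.79-fold (adjusted p = 7.84e-07). Enzymes further down differed by similar amounts, with Aldoa at 2.41-fold, Tpi1 at 2.85-fold, Pgk1 at 2.67-fold, Pgam2 at 2.69-fold, Eno3 at 3.11-fold and Pkm at 2.73-fold. Gapdh, often used as a reference gene, was 1.86-fold higher in EDL (11.39, 11.73 and 11.30 against 10.58, 10.66, 10.58 and 10.49, adjusted p = 0.00017).

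The branch that shuttles reducing power into mitochondria was also higher in EDL. Gpd1, the cytosolic glycerol 3-phosphate dehydrogenase, had values of 7.80, 8.04 and 7.64 in EDL and 5.07, 5.53, 5.32 and 4.85 in soleus (6.2-fold, adjusted p = 7.84e-07), and its mitochondrial partner Gpd2 was 3.71-fold higher. Lactate dehydrogenase split by subunit. Ldha, the M subunit, had 10.30, 10.38 and 10.24 in EDL and 8.60, 8.77, 8.89 and 8.62 in soleus (3.01-fold higher in EDL, adjusted p = 2.26e-06). Ldhb, the H subunit, had 6.08, 5.69 and 6.55 in EDL and 8.20, 8.35, 8.26 and 8.40 in soleus and was 4.57-fold higher in soleus (adjusted p = 1.87e-05), the 1 gene of the list in that direction.

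Glycogen genes lay on the same side. Of 17 genes, 9 were higher in EDL and 2 in soleus, with a median of 1.37. The subunits of phosphorylase kinase, which switches on glycogen breakdown, were among them, with Phkg1 at 5.64-fold, Phka1 at 5.46-fold and Phkb at 4.07-fold. Pygm, the muscle glycogen phosphorylase itself, had values of 9.19, 9.35 and 9.20 on the EDL arrays and 7.69, 7.62, 7.77 and 7.35 on the soleus arrays (3.12-fold, adjusted p = 1.53e-06). Pgm1, which turns the released sugar into a glycolytic substrate, was 3.81-fold higher in EDL. The soleus-higher genes were the phosphatase regulators Ppp1r1a (2.14-fold) and Ppp1r3d (1.85-fold), and neither was called without EDL replicate 1. Ppp1r3d also lost its call without soleus replicate 1 or 4 and with the replicate number as a block (adjusted p = 0.0733).

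Glucose and lactate transport gave a mixed list, with 9 of 19 genes higher in EDL, 3 in soleus and a median of 0.56. Slc16a3 (MCT4), which exports lactate from glycolytic fibres, had values of 7.12, 7.23 and 6.98 in EDL and 4.46, 4.09, 4.51 and 3.46 in soleus. The difference was 7.9-fold (adjusted p = 9.36e-06), and its chaperone Bsg was 2.42-fold higher in EDL. The 2 related Rab GTPase-activating proteins that hold back the glucose transporter went opposite ways. Tbc1d1 had 4.70, 4.38 and 3.92 in EDL and 2.67, 3.00, 2.78 and 2.21 in soleus (3.18-fold higher in EDL, adjusted p = 0.000204), while Tbc1d4 (AS160) had 0.94, 1.29 and 1.68 in EDL and 2.17, 2.51, 2.21 and 2.98 in soleus (2.24-fold higher in soleus, adjusted p = 0.0048). Slc2a4 (GLUT4), the insulin-regulated glucose transporter, was 1.55-fold higher in EDL (adjusted p = 0.00129), a call lost with normexp background correction.

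Creatine and adenylate genes, which buffer ATP during short bursts, were higher in EDL for 12 of 21 and in soleus for 1, with a median of 0.51 (6 and 0 called with slide as a fixed term). Ckm, muscle creatine kinase, had values of 10.06, 10.19 and 10.03 in EDL and 8.92, 8.78, 8.98 and 8.68 in soleus (2.38-fold, adjusted p = 1.43e-05). AMP deaminase split by isoform, with Ampd1 3.66-fold higher in EDL (adjusted p = 1.46e-07). Ampd3 was not well above background on the EDL arrays and was at least 1.97-fold higher in soleus, a bound against the dimmest detected signal of each array (adjusted p = 0.00567), and its call was lost with normexp (difference -0.26). Among subunits of the energy sensor AMPK, Prkag3, the gamma subunit of fast muscle, had 2.10, 2.40 and 2.39 in EDL and 0.07, -0.28, 0.19 and -0.74 in soleus (5.6-fold). The beta subunit Prkab2 was 7.31-fold higher in EDL and the alpha subunit Prkaa2 2.13-fold.

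Fatty acid oxidation showed the opposite side. Of 23 genes, 0 were higher in EDL (0 also at an unadjusted p under 0.05, limma) and 16 in soleus, with a median of -0.58 (1 and 13 with the replicate number as a block). The differences were narrower than those of glycolysis, and 4 genes were called higher in soleus with slide as a fixed term. Acaa2, the last enzyme of the mitochondrial spiral, had values of 6.45, 6.36 and 6.46 on the EDL arrays and 7.37, 7.40, 7.12 and 7.57 on the soleus arrays (1.92-fold, adjusted p = 0.000368). Hadhb, the beta subunit of the trifunctional protein, was 1.74-fold higher in soleus, the medium-chain dehydrogenase Acadm 1.71-fold, and the carnitine carrier Slc25a20 1.71-fold. Fatty acid uptake and storage followed, with 9 of 20 genes higher in soleus, 2 in EDL and a median of -0.52. Lpl, the lipase that frees fatty acids in capillaries, had 5.84, 5.31 and 5.98 in EDL and 7.34, 7.75, 7.17 and 7.48 in soleus (3.31-fold), and the binding protein Fabp3 and the transporter Cd36 were 2.88-fold and 1.98-fold higher in soleus. Dgat2, which makes triglyceride, was 5.26-fold higher. The EDL-higher pair was Acsl6 (2-fold) and Acsl4 (1.69-fold), both acyl-CoA synthetases.

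The citric acid cycle and the respiratory chain differed little and with no stable direction. Of 26 citric acid cycle genes, 4 were higher in EDL and 2 in soleus, with a median of 0.11. With quantile normalization the counts were 2 and 7 and the median -0.15, and with normexp the median was -0.03. Idh2, the mitochondrial isocitrate dehydrogenase that makes NADPH, stood apart, with 6.28, 6.36 and 6.73 on the EDL arrays and 8.69, 8.88, 8.70 and 8.91 on the soleus arrays. It was 5.05-fold higher in soleus (adjusted p = 1.02e-05), while Idh3a, a subunit of the enzyme that drives the cycle, was 1.57-fold higher in EDL.

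Of 36 complex I genes, 7 were higher in EDL and 1 in soleus, with a median of 0.18. That count was 12 without soleus replicate 2, 1 with normexp and 3 with quantile normalization, where the median was -0.05. Of 39 genes of complexes III to V, 0 were higher in EDL (2 at an unadjusted p under 0.05, limma) and 2 in soleus, with a median of 0.04. The soleus count was 1 without any 1 of the 3 EDL arrays or of soleus replicates 1, 2 and 4 and with the replicate number as a block, and 1 gene was higher in EDL without soleus replicate 2. With quantile normalization 18 were higher in soleus and the median was -0.25, and the median was -0.09 with normexp and -0.03 with the median of all genes at 0. Cox8a, a subunit of cytochrome oxidase, was 1.3-fold higher in soleus (adjusted p = 0.0137). Nnt, the mitochondrial transhydrogenase, lay in none of the lists and had 2.21, 1.70 and 2.38 in EDL and 4.84, 4.86, 4.42 and 4.84 in soleus (6.25-fold higher in soleus, adjusted p = 7.86e-06).

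**Figure D2:**
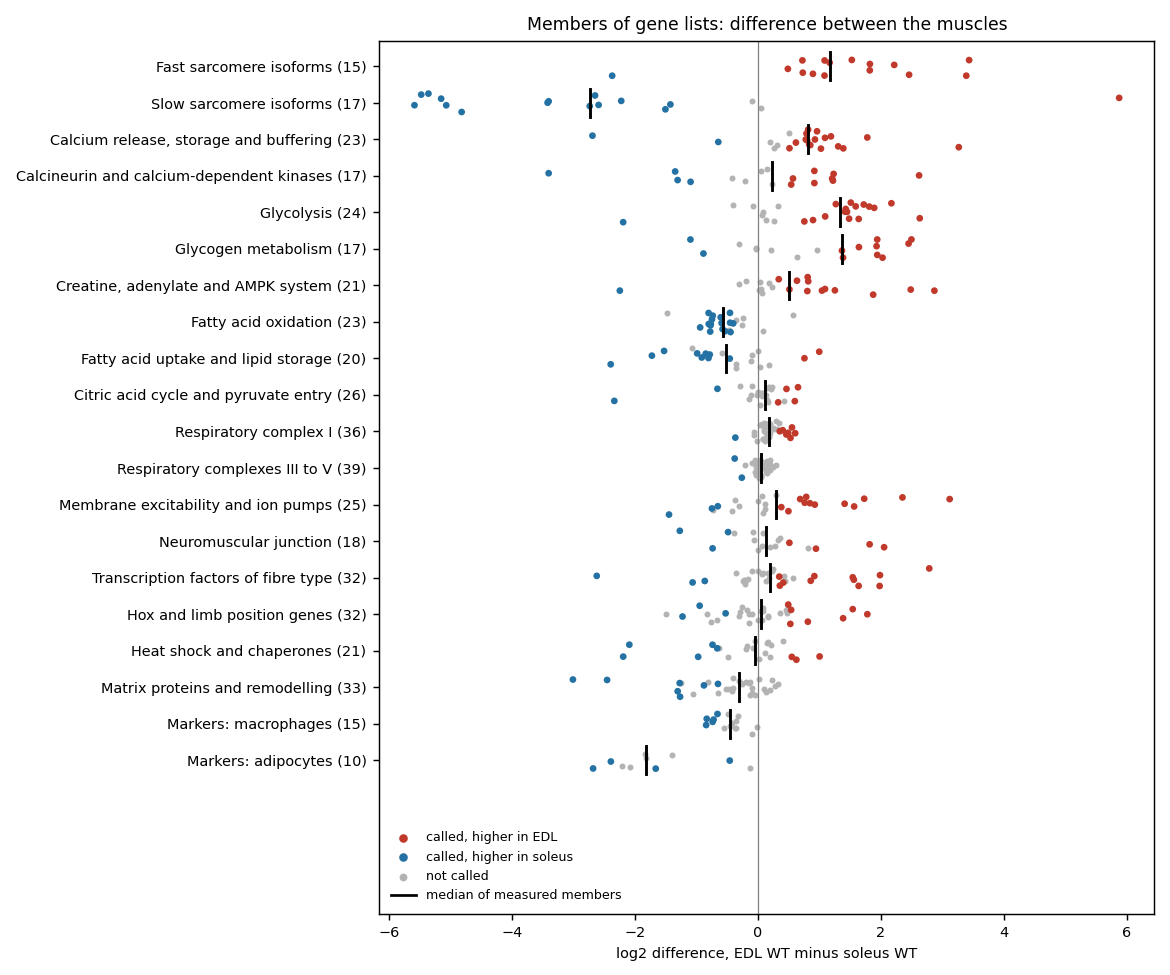
Each point is a gene of a list, placed by its log2 difference between EDL and soleus, with the list's median marked; values right of 0 are higher in EDL. Slow sarcomere genes (median -2.74) and fatty acid oxidation (-0.58) lie mostly left of 0, glycolysis (1.34) and glycogen metabolism (1.37) mostly right, and complexes III to V (0.04) stay close to 0.

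**Figure D3:**
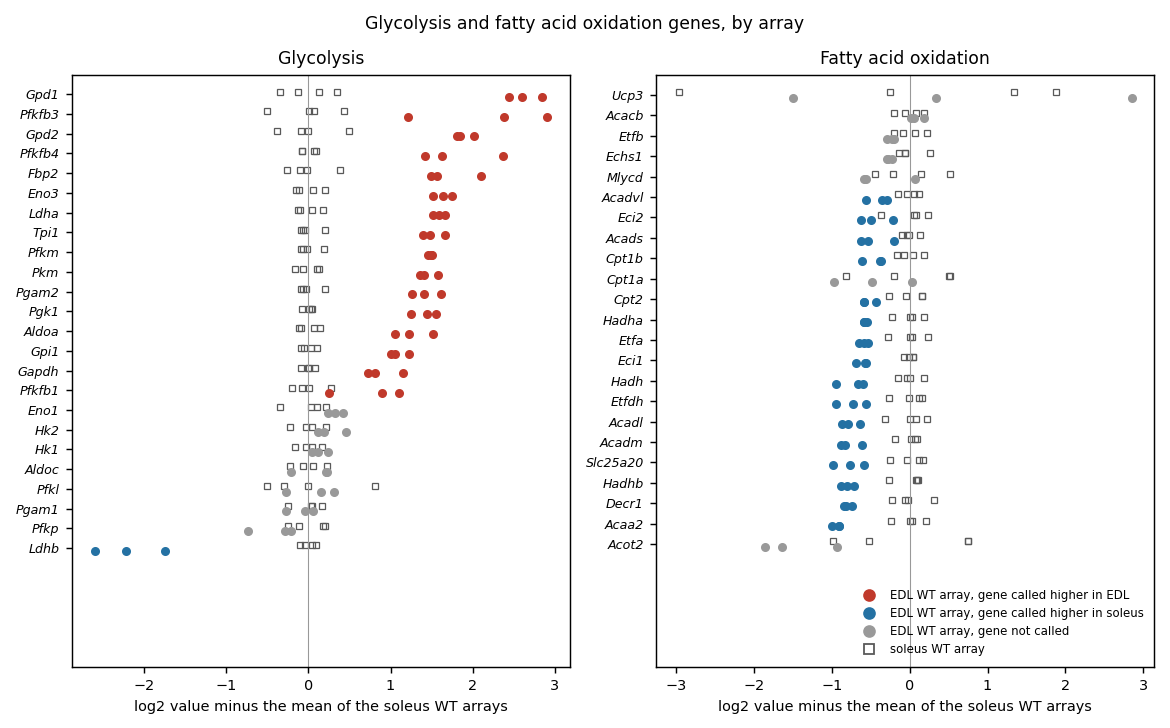
Log2 value on each of the 7 WT arrays minus the mean of the soleus WT arrays (x axis), with 1 line per gene of glycolysis (left panel) and fatty acid oxidation (right panel). Filled points are EDL arrays, coloured by the gene's call, and open squares are soleus arrays. The EDL and soleus points of Pfkm, Gpd1, Ldha and Ldhb do not overlap, and those of Ucp3 spread widely in both muscles.

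Oxygen binding and antioxidant genes had no common direction, with 5 of 26 higher in EDL, 4 in soleus and a median of 0.06 that was below 0 with normexp (-0.08), quantile normalization (-0.12) and the median of all genes at 0 (-0.01). The counts were 3 and 3 without EDL replicate 1, 2 and 4 without EDL replicate 2, and 0 and 1 with slide as a fixed term. Mb, myoglobin, the oxygen store of red fibres, had values of 8.81, 8.70 and 9.20 on the EDL arrays and 9.98, 10.18, 10.05 and 10.08 on the soleus arrays. Every soleus array was higher, by 2.25-fold (adjusted p = 0.00103). Sod3, the extracellular superoxide dismutase, was 1.94-fold higher in soleus, and Gpx3, a secreted glutathione peroxidase, 1.91-fold higher in EDL.

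Genes of membrane excitability favoured EDL. Of 25 genes, 12 were higher in EDL and 3 in soleus, with a median of 0.30, and 8 and 0 were called with slide as a fixed term. Kcnc4, a voltage-gated potassium channel, had values of 3.26, 4.00 and 3.08 on the EDL arrays and 0.25, 0.49, 0.77 and -0.19 on the soleus arrays. The difference was 8.68-fold (adjusted p = 2.82e-06). Clcn1, the chloride channel that steadies the resting membrane, was 2.96-fold higher in EDL (1.71, 1.74 and 1.70 against -0.06, 0.18, 0.36 and 0.12), and Scn4a, the sodium channel of the action potential, 1.72-fold. Aqp4, the water channel of fast fibres, was 2.66-fold higher in EDL. Atp1b2, a beta subunit of the sodium pump, was 5.1-fold higher in EDL (adjusted p = 2.26e-06).

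Of 18 neuromuscular junction genes, 4 were higher in EDL and 3 in soleus, with a median of 0.14. Ache, the enzyme that clears acetylcholine, had values of 0.96, 0.77 and 1.0 in EDL and -0.98, -2.07, -0.62 and -0.89 in soleus (4.15-fold, adjusted p = 0.000155), and Chrne, the adult subunit of its receptor, was 3.52-fold higher in EDL (adjusted p = 0.00104). The count of soleus-higher genes was 0 with normexp and 0 without EDL replicate 1, and it was 1 without EDL replicate 2, EDL replicate 3 or soleus replicate 2.

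Among 32 transcription factors tied to fibre type, 11 were higher in EDL and 3 in soleus, with a median of 0.20, and 5 and 1 were called with slide as a fixed term. Without EDL replicate 1 the counts were 9 and 1. Maf, a large Maf factor known to act in the IIb program, had values of 3.18, 4.26 and 3.21 on the EDL arrays and 0.53, 1.19, 0.81 and 0.53 on the soleus arrays. The groups did not overlap, and Maf was 6.9-fold higher in EDL (adjusted p = 9.7e-06). Sox6, a repressor of slow genes, had 0.88, 0.01 and 0.71 in EDL and -1.29, -2.03, -0.89 and -1.58 in soleus (3.94-fold, adjusted p = 0.00027). Tbx15, a T-box factor of glycolytic fibres, was 2.91-fold higher in EDL, Eya4, a transcriptional coactivator, 3.11-fold, and the orphan nuclear receptor Nr4a1 3.96-fold.

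Prox1, a homeobox factor of slow fibres, had values of -4.45, -4.74 and -5.29 on the EDL arrays and -1.91, -2.80, -1.93 and -2.17 on the soleus arrays. It was not well above background on the EDL arrays and was at least 1.63-fold higher in soleus (adjusted p = 3.1e-05), a call lost with normexp (difference -0.21). Six2, a homeobox factor in none of the lists, had 1.72, 2.44 and 3.15 in EDL and -2.46, -0.74, -1.02 and -0.69 in soleus and was 12.7-fold higher in EDL (adjusted p = 0.000153).

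PGC-1 coactivators and their nuclear receptors, known as drivers of mitochondrial genes, gave 1 gene of 21 higher in EDL and 3 in soleus, with a median of 0.05 that was below 0 with quantile normalization (-0.07), normexp (-0.03) and the median of all genes at 0 (-0.03). No gene was higher in EDL without EDL replicate 1 or 2 (counts of 0 and 3), and the counts were 2 and 4 without soleus replicate 2 or with the replicate number as a block. Ppargc1a, which encodes PGC-1 alpha, had values of 3.41, 2.96 and 2.81 on the EDL arrays and 3.72, 2.79, 2.89 and 2.40 on the soleus arrays (difference 0.11 ± 0.38, adjusted p = 0.854). The estrogen-related receptors Esrrg and Esrrb were higher in soleus. Esrrg had 0.27, -0.17 and 0.70 in EDL and 2.76, 2.15, 2.46 and 2.20 in soleus (4.36-fold, adjusted p = 0.0012), and Esrrb differed 4.16-fold (adjusted p = 1.09e-05). AAGGTCA, a sequence that these receptors bind, lay in the promoter window of 4.56% of 812 genes higher in soleus, 2.99% of 1773 higher in EDL and 2.9% of all 8552. In the same 812 genes CANNTG (63.3%), CAGCTG (14.7%), CATTCC (12.2%), TATAAA (9.36%) and the MEF2 motif (3.2%) also exceeded their shares of all genes. TCAGGTT (2.22%), GGAAAA (18%) and the loose serum response pattern (77.8%) fell below theirs. The median GC content of the windows was 57.4%, against 59.2% over all genes. Whether the receptors act on these genes was not tested.

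Genes known for limb patterning differed in shares close to those of all genes. Of 32 Hox and limb genes, 7 were higher in EDL (20.0% of all genes were) and 3 in soleus (9.75%), with a median of 0.05 against 0.07 over all genes. Hoxa11, a patterning gene of the middle limb segment, had values of 0.70, 1.49 and 0.48 on the EDL arrays and -0.51, 0.09, -0.51 and -1.05 on the soleus arrays. The arrays did not overlap and the difference was 2.61-fold (adjusted p = 0.00196). Hoxa10 was 1.75-fold higher in EDL. Tbx4, a T-box factor of the hind limb, was 1.93-fold higher in soleus (adjusted p = 0.00567), a call lost with normexp and with the replicate number as a block (adjusted p = 0.0632). Between 1 and 5 genes of the list were called higher in soleus when single WT arrays were left out or the replicate number was a block.

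In the list of growth control and atrophy, 7 of 33 genes were higher in EDL and 2 in soleus, with a median of 0.12 (-0.05 with quantile normalization). The EDL share was close to the 20.0% of all genes. The soleus count was 0 without EDL replicate 1, EDL replicate 2 or soleus replicate 4 and 1 without soleus replicate 1 or 3, and with the replicate number as a block the counts were 11 and 1. Wnt4, a secreted signal, had values of 2.25, 2.61 and 2.02 in EDL and -0.48, 0.14, -0.56 and -0.69 in soleus (6.45-fold, adjusted p = 1.24e-05). Smox, spermine oxidase, which is known to fall in atrophying muscle, was 8.27-fold higher in EDL (adjusted p = 3.53e-05), and Igfbp5, an IGF-binding protein, 2.17-fold. Mstn, myostatin, the brake on muscle growth, had 1.5, 1.71 and 1.68 on the EDL arrays and -2.79, -2.38, -2.19 and -3.72 on the soleus arrays, and the groups did not overlap. Mstn did not pass the test (difference 4.41 ± 1.82, adjusted p = 0.0871). It stood at 6.66 on the Ts1Cje soleus array of slide 1, it had an adjusted p of 0.000338 when the WT arrays were fitted alone and of 0.00323 with the replicate number as a block, and with slide as a fixed term its difference was -5.33 (adjusted p = 0.00036).

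Satellite cell and myogenic genes gave 2 of 21 higher in EDL (1 without EDL replicate 2 or 3 or soleus replicate 3 or 4) and 3 in soleus, with a median of -0.16. Pax7, the satellite cell marker, was above background on 2 of 3 EDL arrays and higher in soleus, with measured means 3.16-fold apart (difference -1.66, adjusted p = 0.0167). The difference was -0.86 without EDL replicate 1, and the call was lost with normexp (difference -0.18), with the WT arrays fitted alone (adjusted p = 0.0587) and with the replicate number as a block (adjusted p = 0.0691). Dlk1, an imprinted regulator of muscle growth, was above background on 2 of 4 soleus arrays and higher in EDL, with measured means 2.81-fold apart (adjusted p = 0.00104). Of 21 chaperones, 3 were higher in EDL and 5 in soleus, with a median of -0.06. Hspb7, a small heat shock protein, had values of 3.00, 2.94 and 4.03 in EDL and 5.36, 5.32, 5.56 and 5.41 in soleus (4.26-fold, adjusted p = 0.00312), and Cryab, alpha B-crystallin, was 1.96-fold higher in soleus. Hspa1a, the inducible HSP70, was 4.57-fold higher in soleus. Unc45b, the chaperone that folds myosin, was 2-fold higher in EDL. None of the soleus-higher chaperones was called with slide as a fixed term. At the costamere, which links fibres to the matrix, 7 of 28 genes were higher in EDL and 5 in soleus, with a median of 0.03. The counts were 7 and 3 without EDL replicate 1, 4 and 2 without EDL replicate 2, 1 and 4 with normexp, 3 and 5 with quantile normalization and 3 and 1 with slide as a fixed term. Among the genes of the list, Sgca, alpha-sarcoglycan, was 1.61-fold higher in EDL, and Lmcd1, a LIM protein, 1.98-fold higher in soleus.

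Matrix genes leaned to soleus. Of 33 matrix genes, 0 were higher in EDL (0 also at an unadjusted p under 0.05, limma) and 7 in soleus, with a median of -0.31, and 4 were called higher in soleus without EDL replicate 1. Timp1, an inhibitor of matrix proteases, had values of -2.09, -1.59 and -0.75 on the EDL arrays and 0.22, 1.94, 1.90 and 2.08 on the soleus arrays. Timp1 was 8.06-fold higher in soleus (adjusted p = 0.000355), Postn, periostin, 5.48-fold, Fn1, fibronectin, 2.47-fold, and Cilp, a matrix protein known from cartilage, 2.41-fold. The call of Cilp was lost with the replicate number as a block (difference -1.23, adjusted p = 0.0504). Of 20 collagens, 1 was higher in EDL and 4 in soleus, with a median of -0.25. The counts were 0 and 1 without EDL replicate 1, 0 and 4 without EDL replicate 3, 0 and 2 without soleus replicate 2, 1 and 2 without soleus replicate 3, and 1 and 1 without soleus replicate 4. Col8a1, a collagen of vessel walls, was above background on 1 of 3 EDL arrays and higher in soleus, with measured means 3.91-fold apart (adjusted p = 0.000174), while the main fibrillar chain Col1a1 had 5.85, 6.94 and 6.90 in EDL and 5.87, 6.84, 6.83 and 7.20 in soleus (adjusted p = 0.817). Of 31 endothelial and vascular genes, 0 were higher in EDL (0 also at an unadjusted p under 0.05) and 3 in soleus, with a median of -0.15, among them the vessel growth factor Angpt1 (2.27-fold).

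Markers of other cells moved with the muscles for several types. Of 12 adipocyte markers, 10 were measured, and Lep (leptin) and Ucp1, the brown fat uncoupler, did not pass the filter on dim probes. Of the 10, 0 were higher in EDL and 4 in soleus, with a median of -1.83. The soleus count was 9 without EDL replicate 3. At an unadjusted p under 0.05 (limma), which 5758 of all 14161 genes passed in either direction, the counts were 0 and 9. The summed linear signal of the adipocyte markers, in units of the array's 75th percentile, ran from 134 to 415 on the EDL arrays and from 418 to 639 on the soleus arrays. Cidea, a lipid droplet protein, was 6.42-fold higher in soleus (adjusted p = 1.57e-05), and Adipoq, adiponectin, had -3.44, -1.68 and 0.79 in EDL and -1.1, 1.25, 1.87 and 1.03 in soleus (adjusted p = 0.0726). Adipoq passed the test without EDL replicate 3 (adjusted p = 0.00752), without soleus replicate 1 (0.0251) and with the replicate number as a block (0.0178). Of 17 macrophage markers 15 were measured, without Ptprc (CD45) and Cd163, and of these 0 were higher in EDL (0 also at an unadjusted p under 0.05) and 5 in soleus (3 without EDL replicate 1, EDL replicate 2 or soleus replicate 1), and their sums ran from 120 to 206 in EDL and from 145 to 204 in soleus. Of 12 red blood cell markers 10 were measured, Epb42 not among them, and of these 4 were higher in EDL and 0 in soleus (0 also at an unadjusted p under 0.05), with sums of 414 to 1077 and 428 to 545. The sum of 1077 was that of EDL replicate 3, against 585 and 414 on the other EDL arrays. Without that array the median was -0.07, against 0.36 with it, and the counts stayed at 4 and 0. In Ts1Cje mice 4 of the 10 red cell markers had the same sign.

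For tendon fibroblasts all 14 markers were measured, and 0 were higher in EDL and 1 in soleus (0 to 4 when single WT arrays were left out or the replicate number was a block), with sums of 119.8 to 250.2 and 143 to 298. For Schwann cells 13 of 17 were measured, without Gfap and the neurofilaments Nefh, Nefl and Nefm, and 1 and 1 passed the test (0 and 1 without EDL replicate 2, 1 and 3 without soleus replicate 1, 2 and 4 with the replicate number as a block), with sums of 113 to 185 and 154 to 219, and for smooth muscle, with 13 of 14 measured (without Lmod1), 1 and 1 (0 and 0 without EDL replicate 1 or 2 or soleus replicate 1, 3 or 4), with sums of 214 to 232 and 214 to 252. For lymphocytes, neutrophils and mast cells 11 of 17 were measured, and the T and B cell markers Cd3g, Cd8a and Ms4a1 and the neutrophil genes S100a8, Ngp and Retnlg were not. There the counts were 1 and 0 (1 and 2 at an unadjusted p under 0.05, 0 and 0 without EDL replicate 1 or 2, and 2 and 3 with the replicate number as a block), with sums of 46.6 to 59.9 and 46.3 to 50.7. For skin 4 of 8 were measured, without Krt1, Lor, Dsp and Krtdap, and the counts were 0 and 0 (1 and 0 at an unadjusted p under 0.05, limma, and without EDL replicate 3), with sums of 25.6 to 33.8 and 21.8 to 26.0. The adipocyte and macrophage markers stood on the soleus side together with the matrix genes and with Lpl, Cd36 and Dgat2, which adipocytes also express. Their part in those differences was not tested.

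Many of the widest differences lay outside the lists. Of the 250 genes past 4-fold, 57 belonged to a list and 193 to none. The 39 lists hold at most 39 measured genes each, a small part of the 14161 tested. The share of listed genes was thus higher past 4-fold than over all genes, in lists chosen with earlier results of these data known. Tspan8, a tetraspanin of the cell surface, had values of 3.00, 2.93 and 2.55 on the EDL arrays and -1.57, -1.78, -0.30 and -2.01 on the soleus arrays. The gap of 18.9-fold (adjusted p = 6.8e-06) was the widest on the EDL side among genes measured on all 7 arrays. Gdap1, a mitochondrial outer membrane protein of the Charcot-Marie-Tooth genes, was 13.2-fold higher in EDL, Actc1, cardiac actin, 9.64-fold, Dkk3, a secreted glycoprotein, 9.37-fold, and Gpt2, mitochondrial alanine aminotransferase, 8.2-fold. Itga4, an integrin subunit, was 7.46-fold higher in EDL, and Misp3 7.61-fold. The log2 difference of Actc1 was 3.27, and 4.21 without EDL replicate 3.

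On the soleus side, Fhl2, a LIM protein of heart and slow muscle, had values of -0.71, -1.03 and -0.51 in EDL and 2.95, 3.45, 3.00 and 2.80 in soleus. It was 13.9-fold higher in soleus (adjusted p = 1.34e-07). Cyfip2, a regulator of actin assembly, was 11.1-fold higher in soleus, Sbk3, a kinase of striated muscle, 12.3-fold, and Bdh1, which oxidises the ketone body beta-hydroxybutyrate, 10.8-fold (log2 difference -3.43, and -2.80 without EDL replicate 2). Probes did not always give the same direction. Lin9, a cell cycle regulator, was 21-fold higher in soleus by its brighter probe (chromosome 1, 182611541 to 182611600, mm9), while its other probe, at 182620528 to 182620587, gave 1.15 in favour of EDL (adjusted p = 0.000264). Of 3565 genes with more than 1 usable probe, 27 had probes called in opposite directions.

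Mss51, a mitochondrial translation factor tied to glycolytic fibres, had an adjusted p just under the threshold. Its values were 0.89, 1.96 and 6.34 on the EDL arrays and -0.06, -1.0, 0.81 and -0.32 on the soleus arrays, so EDL replicate 3 stood well above the rest. The adjusted p of 0.0479 (limma) rose above 0.05 with normexp (0.0903), with quantile normalization (0.0572) and without EDL replicate 2 or 3 or any 1 of the 4 soleus arrays (0.0525 to 0.211). The log2 difference was 3.21 with all arrays, 4.29 without EDL replicate 1 and 1.57 without EDL replicate 3.

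Some genes were detected in 1 muscle alone. Of 14161 genes tested, 21 were called and well above background on all 3 EDL arrays and on none of the 4 soleus arrays. The other way the count was 104, which asked for no detection on 3 arrays rather than on 4. Between 41.3% and 46.4% of probes were well above background on the EDL arrays, and between 44.1% and 51.9% on the soleus arrays. The Ts1Cje soleus array of slide 1 had 43.7%. How far detection shaped these counts was not tested. For the genes of both counts the fold is a lower bound, taken against the dimmest detected signal of each array. Cntnap2, a protein of axonal contacts, had values of -0.93, 0.19 and -0.24 on the EDL arrays and was not well above background on the soleus arrays, which makes it at least 6.97-fold higher in EDL (adjusted p = 3.4e-05), and the kinase gene Mapk10 was at least 4.65-fold. In soleus, Tecrl, an endoplasmic reticulum protein of heart and muscle, had 0.56, -0.35, -0.42 and -0.69 and was at least 6.43-fold higher (adjusted p = 1.1e-06). Uchl1, a ubiquitin hydrolase known from neurons, was at least 6.03-fold higher in soleus, Lgi1, a secreted synaptic protein, at least 5.98-fold, and Mhrt, a non-coding RNA from the Myh7 locus, at least 4.08-fold. Agrp, a neuropeptide of the hypothalamus, was at least 4.66-fold higher in soleus, and F2, which encodes prothrombin, at least 3.77-fold.

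The median SD of all genes over replicates was 0.187 in EDL and 0.185 in soleus. The slow isoform genes spread more in EDL, with a median SD of 1.32 in EDL against 0.18 in soleus, while the fast isoform genes had 0.25 and 0.19. The mean of the 12 slow genes was 5.0, 2.67 and 4.71 on the EDL arrays, and 8.42, 8.38, 8.12 and 8.40 on the soleus arrays. EDL replicate 2 was thus the lowest in slow genes, and it was the highest in fast genes, with means of 9.79, 10.07 and 9.59 on the EDL arrays and 8.15, 8.18, 8.27 and 7.84 on the soleus arrays. Some genes of fuel use varied within both muscles. Pdk4, the kinase that shuts pyruvate out of the mitochondrion, had 8.09, 3.13 and 4.77 in EDL and 8.24, 4.75, 6.14 and 7.69 in soleus (adjusted p = 0.448). Ucp3, a mitochondrial carrier that rises with fasting, had 3.50, -0.85 and 0.99 in EDL and 2.53, -2.31, 0.39 and 1.99 in soleus. Angptl4, a fasting-induced inhibitor of Lpl, had 1.65, -1.48 and -0.94 in EDL and 3.37, -0.87, 0.24 and 2.76 in soleus. In all 3 genes and both muscles, replicate 1 was the highest and replicate 2 the lowest. WT arrays of the same number deviated together and also shared their position on the slide. Erdr1 and the metallothionein gene Mt2 also varied within both muscles, with 4.27, 1.14 and -0.25 in EDL and 4.35, 0.98, 0.44 and 4.86 in soleus for Erdr1 (adjusted p = 0.555) and 5.03, 2.05 and 2.16 and 5.15, 3.27, 2.62 and 3.04 for Mt2 (adjusted p = 0.778). With the replicate number as a block, Ucp3 was higher in EDL by 1.01 (adjusted p = 0.0208) and Angptl4 higher in soleus, with a difference of -1.17 (adjusted p = 0.0224).

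**Figure D4:**
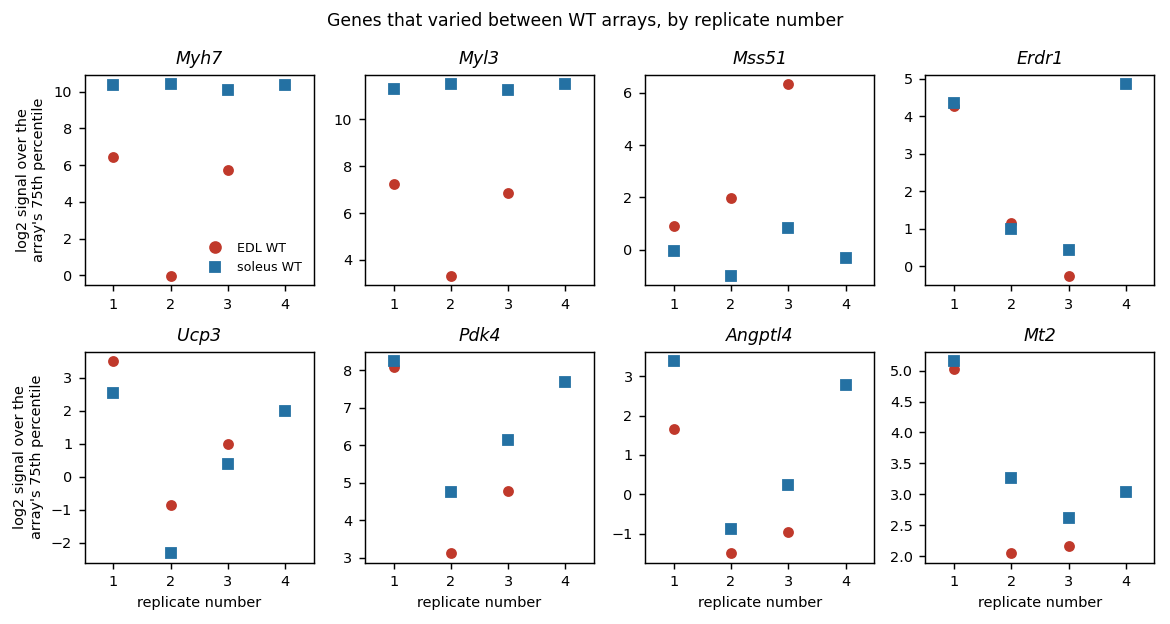
Log2 signal over the array's 75th percentile (y axis) by replicate number (x axis) for 8 genes that varied between WT arrays, with EDL arrays as circles and soleus arrays as squares. Myh7 and Myl3 drop on EDL replicate 2 alone, Mss51 is high on EDL replicate 3, and in Ucp3, Pdk4 and Angptl4 replicate 1 is the highest and replicate 2 the lowest in both muscles.

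The same comparison was made in the Ts1Cje littermates. There, 4241 genes (29.9%) differed between EDL and soleus. Of the 4219 WT calls, 3014 were called in the same direction in Ts1Cje mice, 4165 (98.7%) had the same sign, against 82.0% of all genes, and 1 was called in the opposite direction. Across genes the WT and Ts1Cje differences correlated at 0.894, given as a description over 14161 genes that are not independent. A test of the difference between the 2 genotypes (the interaction in limma) called 0 genes, with 454 at an unadjusted p under 0.05 and a lowest adjusted p of 0.686. Leaving out soleus Ts1Cje replicate 2 gave 1 gene (adjusted p = 0.0315).

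**Figure D5:**
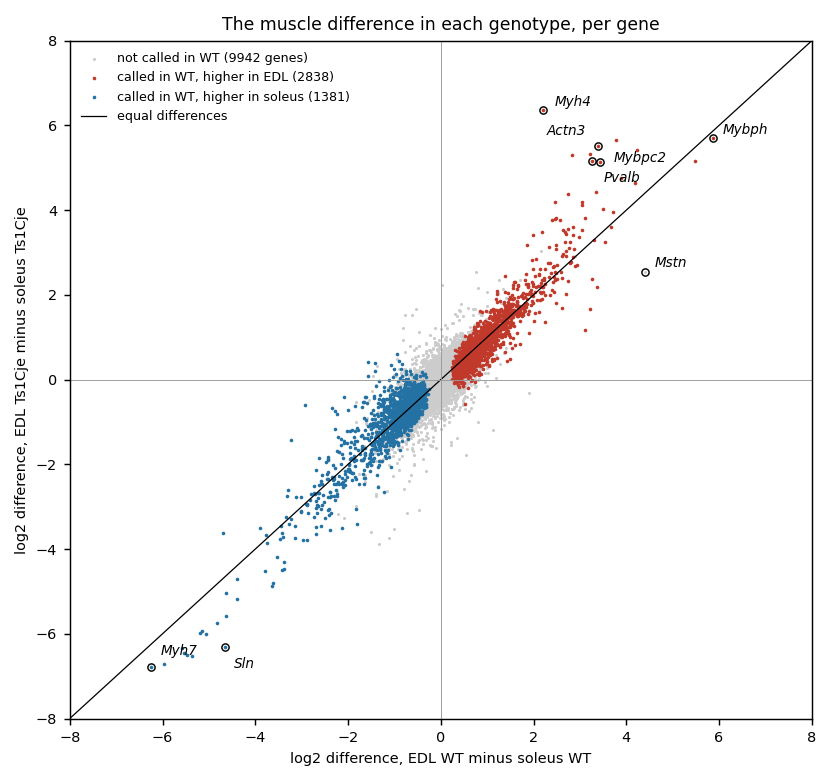
Log2 difference between EDL and soleus in WT mice (x axis) against that in Ts1Cje mice (y axis), 1 point per gene, coloured by the WT call, with 8 genes named and the line of equal differences drawn. The points correlate at 0.894. Myh4, Actn3, Mybpc2 and Pvalb lie above the line at the EDL end, and Mstn lies below it.

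For most isoform genes the measured gap was larger in the Ts1Cje mice, with no gene passing the test of that difference. Of the 23 isoform genes that passed the test in WT mice, 22 had a wider difference in Ts1Cje mice, and so did 160 of the 250 genes past 4-fold. The share over all genes was not counted, so whether the wider gap is particular to these genes was not tested. Myh4 differed by 2.21 in WT and 6.36 in Ts1Cje mice (difference of the differences -4.15 ± 0.82, unadjusted p = 0.000216). Pvalb differed by 3.27 and 5.16 (unadjusted p = 4.84e-05), and Actn3 by 3.39 and 5.52 (unadjusted p = 0.000248). Adjusted over all genes, none of the 3 passed the test in the limma fit, so WT and Ts1Cje values are given side by side as a description.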

How the data were processed

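From each EDL or soleus sample, 25 ng of RNA was labelled by the 1-colour Agilent protocol (Cy3) and hybridised to its own array, per the labels' protocols. The deposited scanner files hold intensity values that the authors read out with Agilent Feature Extraction. Its version is 11.5.1.1 in the file headers but 9.1 in the submitters' processing notes. The processed signal is background-subtracted and not scaled between arrays, per the file headers. The authors also deposited a table of normalized log2 values, used as an alternative. Of 55681 probes, 33842 had a gene symbol (32022 named or updated through RefSeq tables) and 21839 had none. Signals were divided by each array's 75th percentile and taken to log2. Probes well above background on all arrays of at least 1 of the 4 groups were kept (25183), and a gene was represented by its brightest kept probe (14161 genes). Percentiles lay between 62.4 and 119 intensity units on the WT arrays, and no probe was saturated. The small number of arrays limits the precision, with a median SE of 0.168 (log2).

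The contrast of EDL and soleus was tested in limma 3.58.1 (R 4.3.3), with 1 mean per group over all 14 arrays, 10 residual and 2.81 prior degrees of freedom, two-sided tests and Benjamini-Hochberg adjustment over all genes. The steps were tested on simulated data. Alternatives were background correction by normexp (offset 50, on the median signals, as no mean signal was used here), quantile normalization, the deposited table, other filters, the mean of a gene's probes, the WT arrays alone, other variance models, slide as a fixed or random block, the replicate number as a block, and each array left out. Replicate numbers in the titles are shared by both muscles. Samples of the same number deviated together, with correlations of 0.51, 0.41 and 0.33 for numbers 1 to 3. Other combinations gave -0.29 to 0.18. WT arrays of the same number also held the same position on their slides. Paired samples and a shared position therefore cannot be told apart by this check.

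The lists, the isoform pairs and the members were chosen with earlier results of these data known. Genes were named by rule: the 15 with the widest difference per direction among those detected on all 7 arrays, the 10 with the largest bound per direction among those detected in 1 muscle, up to 6 called members per list by smallest p, the isoform pairs, a few fibre type genes and the 10 with the smallest p for the difference between genotypes, of which those the text needs are printed. Named outside it, after their values were seen, were Acsl4, Adipoq, Aldoa, Ampd3, Angptl4, Ankrd2, Aqp4, Cacna1s, Cacng1, Col1a1, Cryab, Csrp3, Eno3, Erdr1, Gapdh, Gpd2, Jph2, Ldhb, Lmcd1, Mstn, Mt2, Mybph, Myom3, Nnt, Pdk4, Pdlim3, Pgam2, Phkb, Ppp1r1a, Ppp1r3d, Rcan2, Ryr1, S100a1, Scn4a, Slc25a20, Slc2a4, Smtnl1, Tbc1d4 and Ucp3. Promoter windows came from RefSeq (GRCm38.p6), and motifs were searched on both strands. Age, sex and a genome sequence were not used here. Most list members are counted without being named, and some results are not reported here.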

Additional observations from a re-analysis of the deposited data

Results flagged for a closer look

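Among the 170 genes named here, 10 had 1 of the 4 soleus arrays standing apart from the other 3, measured as the gap to the nearest array over the whole range of the 4. Chance alone gives about 1 in 20 groups. Soleus replicate 3 was low for Nnt (0.959 of the range), Casq2 (0.924), Hadhb (0.917) and F2 (0.876), and high for Tpi1 (0.853). Soleus replicate 4 was low for Phka1 (0.940). Replicate 1 was low for Timp1 (0.906) and high for Hspa1a (0.883), and replicate 2 was low for Bhlhe41 (0.900) and Uchl1 (0.830). In each of these genes all soleus arrays still lay on 1 side of all EDL arrays. For Nnt the soleus values were 4.84, 4.86, 4.42 and 4.84, against 2.21, 1.70 and 2.38 in EDL, and for Timp1 they were 0.22, 1.94, 1.90 and 2.08, against -2.09, -1.59 and -0.75. The EDL groups, with 3 arrays, were not examined in this way.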

How the results depend on the processing

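The count of genes that differed between EDL and soleus changed most with normexp background correction (2279 in all, 1494 higher in EDL and 785 in soleus) and with slide as a fixed block (1367, 982 and 385). With the slide term the contrast rests on 1 soleus array of slide 1. Leaving out single WT arrays gave 3222 to 3816 genes, 2218 to 2675 higher in EDL and 1004 to 1235 in soleus. The other settings gave 3131 (no filter) to 4590 (array weights), and slide as a random block gave 3550. With the replicate number as a block, which also follows the position on the slide, 4581 genes passed the test, 2852 higher in EDL and 1729 in soleus. Of the calls, 3597 were kept. The genotype difference of the muscle contrast gave 0 genes in all settings except without soleus Ts1Cje replicate 2, so single arrays left out gave 0 to 1, and the replicate block gave 0 (lowest adjusted p = 0.617, limma). Directions changed for Mybpc1 with quantile normalization (-0.34, adjusted p = 0.0172) and for Mstn with slide as a fixed block (-5.33, adjusted p = 0.00036). The cause was not tested. With quantile normalization Tnnc2 differed by 0.06 and Tnni2 by 0.16. Of the 159 genes named in the text that passed the test, the fold moved by over 1.5 times for 42 with normexp, all of them nearer to 0, for 21 with slide as a fixed block, of which 10 moved nearer to 0, for 4 with quantile normalization and for 3 with the mean of a gene's probes. Among lists not described so above, the counts higher in EDL and in soleus were 9 and 5 for membrane excitability, 8 and 5 for fibre type transcription factors, 10 and 2 for creatine and adenylate genes and 2 and 8 for chaperones with quantile normalization. With normexp they were 4 and 2 for growth control, 5 and 1 for Hox and limb genes, 2 and 2 for the citric acid cycle, 2 and 4 for oxygen and antioxidant genes, 0 and 3 for PGC-1 genes, 2 and 1 for satellite cell genes and 1 and 5 for chaperones. With slide as a fixed block they were 0 and 0 for satellite cell genes, 0 and 1 for PGC-1 genes, 3 and 0 for Hox and limb genes, 1 and 1 for the citric acid cycle, 2 and 0 for complex I, 0 and 0 for complexes III to V, 1 and 5 for fatty acid uptake, 7 and 0 for glucose transport, 6 and 1 for calcineurin genes, 2 and 0 for the neuromuscular junction and 0 and 3 for collagens. Genes not well above background on any array of a muscle have only a bound for their fold.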

Other observations

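Further groups of genes were measured. Of 15 genes of the circadian clock, 4 were higher in EDL and 0 in soleus (0 also at an unadjusted p under 0.05, limma), with 0 called higher in EDL with slide as a fixed block and a median of 0.36. Bhlhe41, a clock repressor that also acts in muscle fibres, had values of -0.54, -0.18 and -0.06 in EDL and -1.62, -2.35, -1.69 and -1.62 in soleus (2.95-fold, adjusted p = 0.00155, limma), and Tef, a clock output factor, was 1.61-fold higher in EDL (adjusted p = 0.00361). The hour at which the muscles were taken is not given in the sources used here. Of 15 genes that answer to denervation or regeneration, 2 were higher in EDL (1 without EDL replicate 2 and with the replicate number as a block) and 5 in soleus (3 without EDL replicate 1), with a median of -0.23. Dach2, a corepressor tied to motor nerve activity, was higher in soleus, with measured means 4.99-fold apart (difference -2.32, adjusted p = 0.00857), and had -2.95, -4.67 and -1.88 in EDL, where 1 of 3 arrays was above background, and -1.39, -0.96, -0.36 and -0.70 in soleus. The difference was -1.57 without EDL replicate 2 and -2.96 without EDL replicate 3. Of 16 genes for ketone and amino acid oxidation, 4 were higher in EDL (2 without EDL replicate 1 or 2 or soleus replicate 1, 3 or 4) and 2 in soleus (1 without EDL replicate 2), with a median of 0.17, and Gpt2 and Bdh1 marked the ends at 3.03 and -3.43.

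Of 6665 probes with no gene symbol that passed the filter, 642 (9.63%) were higher in EDL and 711 (10.7%) in soleus, adjusted over those probes in limma, against 20.0% and 9.75% of the genes.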
